A study of Mus musculus with 4 samples.

Results

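Peaks at gene ends were the DNase-seq peaks of 3T3-L1 cells whose midpoint lay within 1000 bp of the 3' end of a protein-coding gene and over 2000 bp from every start site of a protein-coding transcript, both taken from GENCODE M21. On chromosomes 1 to 19, 5506 of 289298 peaks of biosample 1 (1.90%) and 1548 of 94658 peaks of biosample 2 (1.64%) met the rule. The rule used position alone, and no measured value entered it. The peaks that were likewise over 2000 bp from every start but away from gene ends, 230480 in biosample 1 and 68994 in biosample 2, were used for comparison and are called the other distal peaks.

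3T3-L1 is an immortalized line of mouse embryo fibroblasts that can be turned into fat cells. The labels give its strain as C57BL/6J, name no treatment, and describe 4 libraries of 2 biosamples, 2 libraries each. One peak list and one hotspot list were deposited per biosample, each made from both of its libraries, so no value has a replicate error. The intervals below cover counting error only, and peaks and genes are not replicates of a culture. All 8 fibroblast markers examined (Col1a1, Col1a2, Col5a2, Fn1, Pdgfra, Pdgfrb, S100a4 and Vim) had a promoter peak in both lists, and 0 of 8 markers of other cells (Alb, Cd3e, Cd79a, Cdh1, Epcam, Kdr, Nanog and Neurod1) had one in either list. In wider sets of genes known from other cells, promoter peaks were present in both biosamples at 3 of 10 neuron, 3 of 8 skeletal muscle, 2 of 8 blood cell and 1 of 11 hepatocyte genes. Genes with a promoter peak in 1 biosample alone do not count towards these. The totals are only the genes whose whole gene-end window was over 2000 bp from every start.

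DNase I cuts chromatin where nucleosomes are displaced, and a peak is a short stretch of frequent cutting, most often at a promoter or at a distal site bound by transcription factors. At the end of a gene the transcript is cleaved and polyadenylated near the hexamer AATAAA, while the polymerase runs on into the flanking DNA before it is released. CTCF, which marks insulators and the anchors of cohesin loops, and AP-1, the FOS and JUN dimer that binds many fibroblast enhancers, are common occupants of open sites outside promoters.

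Every peak of the lists on these chromosomes was 150 bp long. The 6 peaks printed here show the motifs on which the comparison with other distal peaks turned. They are the + strand of mm10, 5′ to 3′, and capitals mark the motif match. The first 3 carry a match to the CTCF motif. They lie in chr1:135753036-135753185 downstream of Csrp1, chr15:103307236-103307385 downstream of Gpr84 and chr10:128913296-128913445 downstream of Rdh5.
Csrp1: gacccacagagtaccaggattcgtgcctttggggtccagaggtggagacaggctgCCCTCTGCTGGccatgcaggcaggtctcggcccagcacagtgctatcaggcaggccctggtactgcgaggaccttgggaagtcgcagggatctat
Gpr84: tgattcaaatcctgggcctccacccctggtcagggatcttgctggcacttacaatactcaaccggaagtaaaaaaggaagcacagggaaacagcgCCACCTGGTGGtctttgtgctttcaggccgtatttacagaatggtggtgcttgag
Rdh5: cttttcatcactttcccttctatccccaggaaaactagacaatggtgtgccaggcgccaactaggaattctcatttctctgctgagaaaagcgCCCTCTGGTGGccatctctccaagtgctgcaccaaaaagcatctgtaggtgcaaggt

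The other 3 carry the AP-1 motif TGAGTCA. They lie in chr14:31669336-31669485 downstream of Btd, chr6:91488956-91489105 downstream of Xpc and chr3:14506036-14506185 downstream of Slc7a12.
Btd: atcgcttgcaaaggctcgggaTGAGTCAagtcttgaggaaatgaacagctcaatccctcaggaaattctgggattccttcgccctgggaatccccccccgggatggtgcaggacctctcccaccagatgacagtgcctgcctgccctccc
Xpc: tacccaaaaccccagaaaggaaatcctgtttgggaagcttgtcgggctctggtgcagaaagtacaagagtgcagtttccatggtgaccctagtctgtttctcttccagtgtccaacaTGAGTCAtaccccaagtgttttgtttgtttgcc
Slc7a12: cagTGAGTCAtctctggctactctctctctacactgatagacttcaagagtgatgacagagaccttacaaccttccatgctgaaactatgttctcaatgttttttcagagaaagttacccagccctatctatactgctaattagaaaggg

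All 6 were present in both lists. The deposited score of a peak is a whole number of at most 150 without a stated definition, and it was read only as a rank within its list. The Csrp1, Gpr84 and Rdh5 peaks had scores of 140, 129 and 129 in biosample 1 and 70, 78 and 75 in biosample 2. The Btd, Xpc and Slc7a12 peaks had scores of 148, 143 and 143 in biosample 1 and 94, 96 and 95 in biosample 2. Csrp1 encodes a LIM protein of the actin cytoskeleton, Xpc a DNA damage sensor of nucleotide excision repair, and Btd biotinidase.

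Gene ends held more peaks per base than the rest of the sequence far from starts. The windows searched covered 32.9 Mb, 1.37% of the called bases of these chromosomes. Biosample 1 had 167.5 peaks per Mb there (95% Poisson interval 163.1 to 172.0) and 102.5 in the other distal sequence, a ratio of 1.63 (1.59 to 1.68). Biosample 2 had 47.1 peaks per Mb (44.8 to 49.5) and 30.7, a ratio of 1.53 (1.46 to 1.61).

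The excess was not particular to the window of 1000 bp, and it lay mostly on the downstream side. In biosample 1 the density was 137.1 peaks per Mb between 3000 and 6000 bp inside the gene and 146.9 in its last 1000 bp. It was 195.3 in the first 1000 bp downstream (188.8 to 201.9), 197.1 between 1000 and 3000 bp downstream, and 169.5 between 3000 and 6000 bp downstream. In biosample 2 the last 1000 bp of the gene had 39.5 peaks per Mb (36.6 to 42.6) and the first 1000 bp downstream had 55.6 (52.1 to 59.2), followed by 57.6 and 54.0 farther on. Both lists thus stepped up across the gene end and stayed high downstream. A peak near 2 gene ends was counted at each in these densities.

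**Figure D1:**
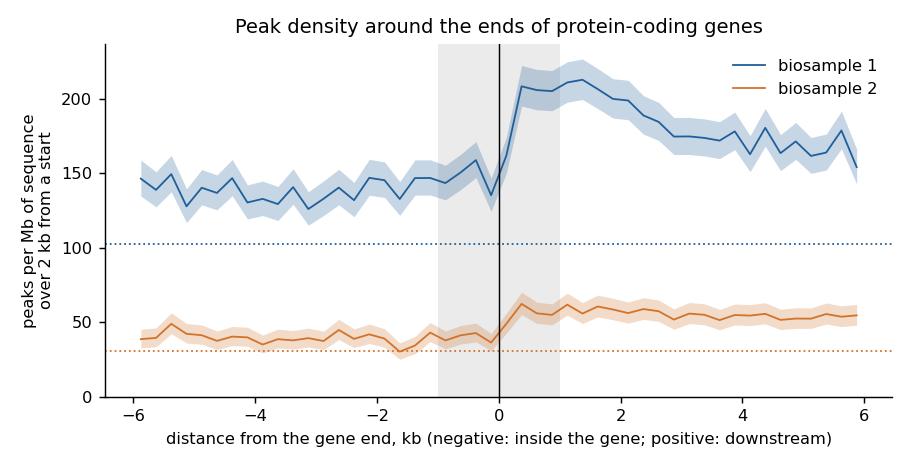
Peaks per Mb of sequence over 2 kb from a protein-coding start (y axis) in bins of 250 bp by distance from the gene end in kb (x axis, negative inside the gene) for biosample 1 (blue) and biosample 2 (orange). Bands are 95% Poisson intervals, dotted lines the density in other distal sequence (102.5 and 30.7), and the shaded strip marks 1 kb on either side; both curves step up at the end and remain above the dotted line.

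Each peak was then assigned to its nearest gene end. Downstream of it lay 58.2% of the biosample 1 peaks at gene ends (95% Wilson interval 56.9 to 59.5, 3203 peaks) and 58.9% of those of biosample 2 (56.4 to 61.3, 911 peaks), beside 50.8% of the searched sequence. The median distance to the end was 505 bp in biosample 1 (quartiles 270 and 748) and 496 bp in biosample 2. The midpoint was outside every protein-coding gene in 49.9% and 52.2%, in a 3' UTR in 32.7% and 31.7%, in an intron in 11.3% and 11.1%, and in a coding exon in 4.58% and 3.17% of the peaks of biosamples 1 and 2. A further gene end lay within 1000 bp of 7.16% of them in biosample 1 and 6.14% in biosample 2.

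Peaks at gene ends were of middling rank, far below promoter peaks. Their median score percentile was 49.1 in biosample 1 (quartiles 25.9 and 72.5), where other distal peaks had 46.9 and peaks within 1000 bp of a start had 75.1. The medians of biosample 2 were 50.2, 46.3 and 67.7. Upstream and downstream peaks of biosample 1 both had a median of 49.1. Across the limit of 1000 bp, the 513 peaks at 900 to 1000 bp from an end had a median percentile of 48.0 and the 558 peaks at 1000 to 1100 bp had 51.2, so no break in rank was seen there.

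Transcript starts of genes not recorded as protein-coding, pseudogenes included, were rare at these peaks. They are called non-coding starts here. One lay within 1000 bp of 4.27% of the peaks at gene ends in biosample 1 (3.77 to 4.83) and of 3.62% of the other distal peaks. The shares were 4.26% and 4.19% in biosample 2. Non-coding transcripts of protein-coding genes were not counted among these starts. With peaks within 2000 bp of a start of those transcripts also left out, 5071 and 1412 peaks at gene ends remained in biosamples 1 and 2. Starts of RefSeq mRNAs that GENCODE's protein-coding starts do not cover were found within 1000 bp of 0.872% (0.658 to 1.15) and 1.10% in biosample 1 and of 0.904% (0.539 to 1.51) and 1.23% in biosample 2. The polyadenylation hexamer AATAAA stood on the gene's strand within the 200 bp around 11.9% of the peaks inside the gene (10.6 to 13.2) and on the opposite strand in 7.29% (6.30 to 8.43) in biosample 1. Downstream of the end these shares were 8.90% and 7.99%.

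CTCF matches were more frequent, and AP-1 matches less frequent, at gene ends than at other distal peaks. Motifs were searched on both strands of the 200 bp centred on each midpoint, and a match is a description of the sequence, not a bound site. In biosample 1 a CTCF match stood in 393 peaks at gene ends (7.14%, interval 6.49 to 7.85) and in 4.25% of other distal peaks, an odds ratio of 1.73 (exact conditional interval 1.56 to 1.92). In biosample 2 it stood in 249 peaks (16.1%) and in 9.07%, an odds ratio of 1.92 (1.67 to 2.21). Peaks within 1000 bp of a start held the CTCF motif in 1.41% and 2.00%.

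The AP-1 motif was found in 890 peaks at gene ends of biosample 1 (16.2%, 15.2 to 17.2) and in 22.5% of other distal peaks, an odds ratio of 0.663 (0.616 to 0.713). In biosample 2 it was in 323 peaks (20.9%, 18.9 to 23.0) and in 29.1%, an odds ratio of 0.642 (0.565 to 0.727). GC content moved with the comparison, at a median of 48.5% at gene ends and 46.5% at other distal peaks of biosample 1. Within quintiles of GC content the Mantel-Haenszel odds ratio was 1.61 for CTCF and 0.677 for AP-1 in biosample 1, and 1.82 and 0.660 in biosample 2. Within deciles of the score it was 1.68 and 0.647 in biosample 1, and 1.88 and 0.620 in biosample 2.

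The CTCF share did not single out the gene end within its neighbourhood. By distance from the nearest gene end it ranged from 5.88% to 7.47% over 6 classes of biosample 1 peaks reaching 6000 bp to either side, and was 3.81% over 10000 bp away. In biosample 2 it ranged from 14.4% to 16.6%, and was 7.98% over 10000 bp away. Against the distal peaks 1000 to 6000 bp from an end, peaks at gene ends had an odds ratio for CTCF of 1.08 (0.960 to 1.21) in biosample 1 and 1.07 (0.916 to 1.25) in biosample 2. The AP-1 share was lowest in the first 1000 bp downstream, at 15.7% and 19.5%. Against the same neighbours the AP-1 odds ratio was 0.831 (0.767 to 0.900) in biosample 1 and 0.874 (0.761 to 1.001) in biosample 2, whose interval includes 1.

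**Figure D2:**
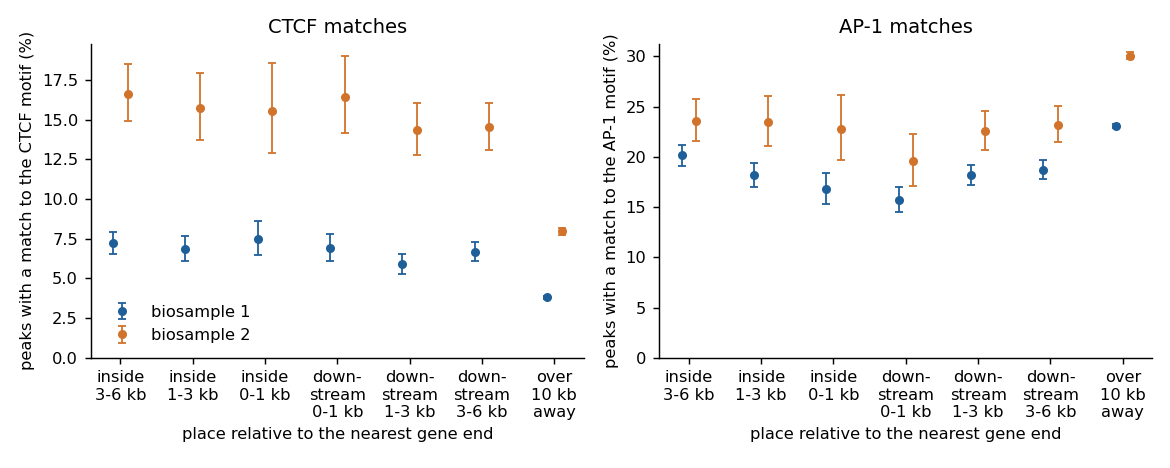
Share of distal peaks with a CTCF match (left) or an AP-1 match (right), in percent, by place relative to the nearest gene end (x axis), with 95% Wilson intervals; biosample 1 is blue and biosample 2 orange. CTCF shares lie between 5.88% and 7.47% in biosample 1 within 6 kb of an end and at 3.81% beyond 10 kb, and AP-1 shares are highest beyond 10 kb.

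Of the other motifs, that of the TEAD factors (CATTCCA or CATTCCT), partners of the Hippo pathway's YAP, had an odds ratio of 0.781 (0.716 to 0.852) in biosample 1 and 0.744 (0.631 to 0.874) in biosample 2. The SP/KLF motif GGGCGG, common in GC-rich promoters, had 1.51 (1.34 to 1.69) and 1.65 (1.37 to 1.99), which came to 1.18 and 1.22 within quintiles of GC content. The C/EBP motif TTGCNNAA, bound by the factors that drive fat cell differentiation, had 0.782 (0.707 to 0.862) and 0.845 (0.707 to 1.005). Within quintiles of GC content the C/EBP ratio came to 0.841 (0.762 to 0.927) and 0.931 (0.783 to 1.11), and the TEAD ratio to 0.796 and 0.766. The E-box CAGCTG had 1.12 (1.04 to 1.21) and 1.14 (0.987 to 1.30), and 0.997 and 0.982 within quintiles of GC content. For the RUNX motif TGTGGTT and the EBF motif TCCCNNGGG both intervals included 1.

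The peaks with a CTCF match ranked high in biosample 1, with a median percentile of 75.1 beside 59.5 for those with an AP-1 match. In biosample 2 the medians were 58.9 (quartiles 39.9 and 73.9) and 60.5. Of the 393 biosample 1 peaks with a CTCF match, 248 (63.1%) were shared with biosample 2. All 249 such peaks of biosample 2 were shared with biosample 1. The CTCF match lay on the strand of the gene in 224 of 392 biosample 1 peaks with matches on 1 strand (57.1%, 52.2 to 62.0) and in 141 of 248 biosample 2 peaks (56.9%, 50.6 to 62.9). In the 9th score decile of biosample 1, 19.9% of the peaks at gene ends and 11.1% of other distal peaks had a CTCF match, and in the top decile 9.11% and 3.47%.

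How often peaks at gene ends were shared between the biosamples, beside other distal peaks, depended on the list and on its length. An overlap of 1 bp or more counted as sharing. A biosample 2 peak met 1484 of the 5506 biosample 1 peaks at gene ends (27.0%) and 28.4% of other distal peaks, an odds ratio of 0.931 (0.876 to 0.989). Of the 1484, 1472 met a peak that was itself at a gene end. In the other direction 95.1% of the biosample 2 peaks at gene ends and 94.8% of other distal peaks were shared, an odds ratio of 1.06 (0.840 to 1.36). The biosample 1 list was 3.07 times as long, and the depth behind either list is unknown. With the biosample 1 list shortened to the number of peaks in the other, the odds ratio was 0.820 (0.735 to 0.916) in biosample 1 and 1.27 (1.12 to 1.45) in biosample 2. With the whole list and no deciles, the biosample 1 ratio was 0.950 with a window of 500 bp and 0.958 over 5000 bp from starts. Both intervals included 1.

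Rank went with sharing. Shared biosample 1 peaks at gene ends had a median percentile of 82.3 and the unshared ones 36.6. The share rose from 1 of 401 peaks in the lowest score decile to 368 of 384 (95.8%) in the highest. Within deciles peaks at gene ends of biosample 1 were shared less often than other distal peaks, with an odds ratio of 0.756 (0.692 to 0.827). The shares were 11.6% and 16.6% in the 6th decile and 58.1% and 64.7% in the 8th. With only the stronger 50% of each list the ratio turned to 1.16 (1.01 to 1.32), and the ratio without deciles came to 0.996 (0.915 to 1.08). In biosample 2 the ratio within deciles was 0.888 (0.698 to 1.13). Over the 1484 shared peaks the 2 scores had a Spearman rho of 0.880, which describes these peaks only.

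**Figure D3:**
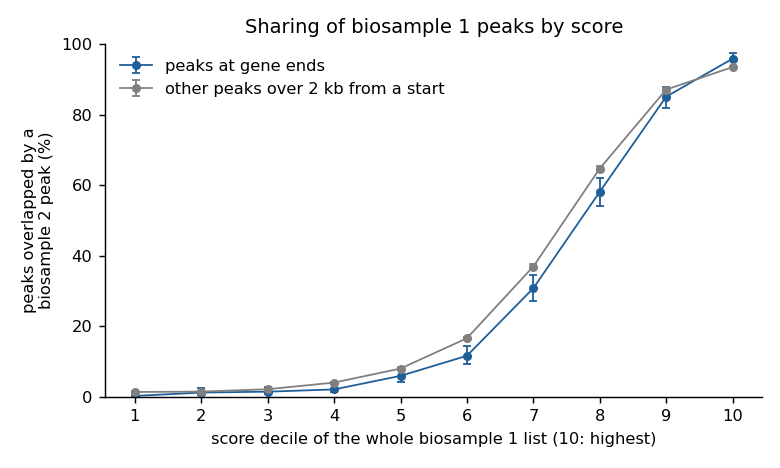
Share of biosample 1 peaks met by a biosample 2 peak, in percent (y axis), by decile of the score over the whole list (x axis), for peaks at gene ends (blue) and other distal peaks (grey), with 95% Wilson intervals. Both rise to over 93% in the top decile, and the blue points lie below the grey ones in the middle deciles, as at 58.1% and 64.7% in the 8th.

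The 76 biosample 2 peaks at gene ends without a biosample 1 peak were weak, with a median percentile of 17.4, and 60 of them (78.9%) lay in a biosample 1 hotspot. The 5 strongest of them stood at Lhfpl4 (score 87), Slc23a3 (66), the agouti gene a (64), Arl5c (60) and Hes1 (56). All 5 genes also had at least 1 biosample 1 peak at their end.

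Hotspots are the broader regions of raised cutting, and each peak at a gene end lay in one, as did each of the other distal peaks. The hotspots that held peaks at gene ends differed little in median width from the others, and in biosample 1 more of them were wide. A hotspot counted as at a gene end if any of its peaks was, and among the others only if none was. Hotspots with more peaks thus had more chances to be counted at gene ends, so the shares of wide hotspots are not a like comparison. In biosample 1, 4825 such hotspots had a median width of 280 bp (quartiles 168 and 504), beside 270 bp (164 and 445) for hotspots with another distal peak. In biosample 2, 1483 such hotspots had a median of 259 bp (164 and 343), beside 263 bp (171 and 364). Over 1000 bp wide were 10.2% (9.39 to 11.1) and 6.61% (6.50 to 6.72) in biosample 1, and 2.63% (1.93 to 3.57) and 1.91% (1.81 to 2.02) in biosample 2, where the intervals overlapped.

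Most hotspots held 1 peak. In biosample 1, 16.4% of the hotspots at gene ends and 10.9% of the others held 2 or more peaks. The grouping by any peak by itself raises the first of these shares, so no difference is read from them. The shares were 6.20% and 6.02% in biosample 2. Biosample 1 peaks at gene ends in hotspots over 1000 bp had a median percentile of 75.1 and were shared in 45.3% of cases. Those in narrower hotspots had a median of 43.3 and were shared in 23.4%. The deposited −log10 q of a hotspot is capped at 100, and 48.5% of the biosample 1 hotspots at gene ends and 48.6% of the others reached the cap, so hotspots were not ranked by it.

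The widest hotspot at a gene end spanned 14243 bp at Col1a2, which encodes a chain of type I collagen, with 5 peaks within 1000 bp of its end. That hotspot belonged to biosample 1, and biosample 2 had 0 peaks at that end. The next widest of biosample 1 were at Dnah2, an axonemal dynein (12673 bp), Rnf167, a ubiquitin ligase (10883 bp), Hes1, a Notch-responsive repressor (9483 bp) and Frmd8 (8923 bp). At Hes1 the biosample 2 hotspot was 7837 bp wide and the widest of its list at a gene end. The mitochondrial leucyl-tRNA synthetase gene Lars2 had 4 peaks at its end in each list. The strongest of them, with scores of 147 and 114, sat in a hotspot of 181 bp in both. No mask for artefact-prone sequence was applied here to any peak, this one included.

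The gene ends were then counted by gene. Of 20807 protein-coding genes on chromosomes 1 to 19, 15490 had a whole window of 1000 bp on either side of their end over 2000 bp from every start, and the counts by gene are of these. A peak stood at the end of 3494 of them (22.6%) in biosample 1 and of 1233 (7.96%) in biosample 2. Both lists had one at 1215 genes (7.84%), biosample 1 alone at 2279, biosample 2 alone at 18, and neither at 11978. Of the 3494 genes, 2404 had 1 peak, 665 had 2 and 425 had 3 or more. Of all biosample 1 peaks at gene ends, 439 (7.97%) overlapped another of them. A number of peaks at an end is therefore not a number of separate open sites.

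Genes with a promoter peak more often had a peak at their end. A promoter peak was one within 1000 bp of any start of the gene's protein-coding transcripts. In biosample 1, 2654 of 10293 genes with a promoter peak (25.8%, 24.9 to 26.6) and 840 of 5197 without one (16.2%, 15.2 to 17.2) had a peak at the end, an odds ratio of 1.80 (1.65 to 1.97). The counts of biosample 2 were 768 of 8633 (8.90%, 8.31 to 9.51) and 465 of 6857 (6.78%, 6.21 to 7.40), an odds ratio of 1.34 (1.19 to 1.52). Within quintiles of gene length the odds ratios were 1.85 and 1.36, and within quintiles of the number of starts within 100000 bp they were 1.72 and 1.29. The difference was widest among the shortest genes of biosample 1 (median length 5815 bp), at 32.3% and 14.0%, and narrowest among the longest (median 136092 bp), at 20.8% and 15.5%.

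The same relation held 10000 bp beyond the gene. For 11884 genes a second window of the same size centred 10000 bp downstream of the end was also free of starts and of other gene ends. In biosample 1 the gene end had a peak in 25.3% of genes with and 14.9% of genes without a promoter peak, and the window downstream in 24.8% and 14.8%. The odds ratios were 1.93 (1.74 to 2.13) and 1.89 (1.71 to 2.09), and their ratio was 1.02 (0.889 to 1.17). For biosample 2 they were 1.55 and 1.49, with a ratio of 1.03 (0.856 to 1.25). Both intervals included 1, so a stronger relation at the end than downstream was not detected.

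**Figure D4:**
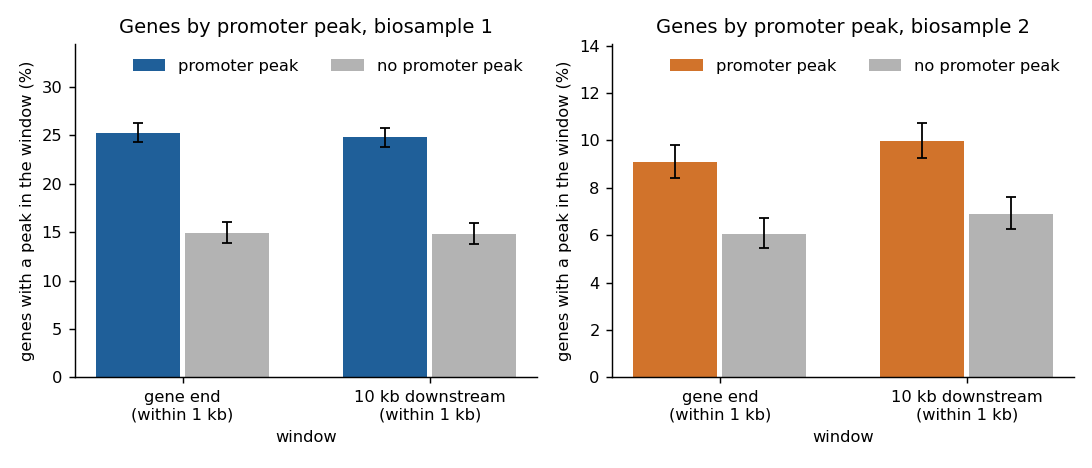
Percent of 11884 genes with a peak (y axis) in the window at the gene end and in the window centred 10 kb downstream (x axis), for genes with a promoter peak (coloured) and without one (grey), in biosample 1 (left) and biosample 2 (right), with 95% Wilson intervals. In biosample 1 the bars stand at 25.3% and 14.9% at the end and at 24.8% and 14.8% downstream.

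Peaks at the ends of genes without a promoter peak ranked close to the rest and were shared more often in biosample 1. Their median percentile was 46.9, beside 49.1 at genes with a promoter peak, and 352 of 1094 (32.2%, 29.5 to 35.0) were shared, beside 976 of 3764 (25.9%, 24.6 to 27.4). The odds ratio of sharing was 1.36 (1.17 to 1.57), and 2.33 (1.85 to 2.93) within score deciles. In biosample 2 the shares were 95.2% and 95.3%, and the odds ratio within deciles was 1.20 (0.710 to 2.04). These ratios were added after the data had been seen. In biosample 1 the CTCF share of the peaks without a promoter peak was 8.78% (7.24 to 10.6) beside 6.72% (5.96 to 7.57), and the AP-1 intervals were 15.8 to 20.4% and 14.9 to 17.3%. The median hotspot width around them was 294 bp, beside 311 bp. In all, 353 of 1373 genes with peaks at their end in both lists, partly searched windows included, had a promoter peak in neither list. The matching share of all genes is not given here, so neither an excess nor a lack is read from this count.

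The strongest of these promoter-free genes was Gstm6, a glutathione transferase, with scores of 145 and 101 in biosamples 1 and 2. Aknad1 (145 and 93), the amino acid transporter gene Slc7a12 (143 and 95), the metal transporter gene Slc11a1 (142 and 89) and 1700067K01Rik (143 and 87) followed. Sf3b5, a small subunit of a splicing complex, had 143 and 86, and Ldhd, a lactate dehydrogenase, 144 and 81. Plbd1 had 145 and 80, Spata4 143 and 79, and the kinase gene Pak6 144 and 78. The Sf3b5 peak lay in an exon, outside coding sequence and 3' UTR, and the call of no promoter peak rests on annotated starts.

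Ends that faced an end on the opposite strand within 2000 bp had peaks more often. In biosample 1, 603 of 2047 such genes (29.5%, 27.5 to 31.5) and 2891 of 13443 others (21.5%, 20.8 to 22.2) had a peak at the end, an odds ratio of 1.52 (1.37 to 1.69). In biosample 2 the shares were 9.62% and 7.71%, an odds ratio of 1.28 (1.08 to 1.50). The windows of such facing ends overlap, so a peak between them could count for both genes, which the intervals do not allow for. This comparison was added after the data had been seen.

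The strongest shared peaks at gene ends lay at Mdm2, the ubiquitin ligase that restrains p53, and at its neighbour Cpm, a carboxypeptidase, whose ends converge on chromosome 10. Mdm2 had 4 peaks at its end in biosample 1 and 3 in biosample 2, and its strongest pair had scores of 150 and 140. Cpm had 4 and 2 peaks, with 150 and 137 for the strongest pair. The segment from 117 to 118 Mb of that chromosome held 1063 peaks of biosample 1 with a median percentile of 99.3 and 309 of biosample 2 with 97.8, at gene ends and elsewhere alike. It gave 29 of the 5506 peaks at gene ends but 19 of the 55 in the top 1% of them by score. The strongest biosample 1 peaks without a biosample 2 peak lay there too, at Slc35e3 (score 148), Cpm (147) and Nup107 (147). Without it, an exclusion chosen after the data had been seen, the density ratio was 1.63 in biosample 1 and 1.53 in biosample 2, and the promoter odds ratio 1.80 and 1.34.

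Outside that segment strong shared peaks stood at Vgll4, a TEAD cofactor (147 and 99), Rex1bd (148 and 97), Tmem107 (145 and 105) and 1810062G17Rik (148 and 95). The Vgll4 and Rex1bd peaks also lay within 1000 bp of another gene end and are named by the nearest. The same holds for the peaks named at Rnf167, Srebf1, Agpat2, Plbd1 and Pak6. The Tmem107 peak lay 318 bp downstream of the end and 184 bp from a non-coding start. Other named peaks within 1000 bp of such a start were those at Frmd8 (443 bp), Mmp14 (647 bp), 1700067K01Rik (717 bp) and Srebf1 (786 bp). The strongest peak at AY358078 was 931 bp from one. The genes with the most peaks at their end were AY358078 with 11, whose scores ran only from 8 to 19, Cabp4 with 8, and Nanos1, Itpripl2 and Gm14443 with 7 each, all counted in biosample 1. Biosample 2 had 2 at Cabp4 and 0 at the other 4.

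Gene lists were set beside the shares over all genes, 22.6% in biosample 1 and 7.96% in biosample 2, as a description without a test. In biosample 1 the insulin and glucocorticoid signalling genes had a peak at the end in 9 of 17, the actin cytoskeleton and adhesion genes in 10 of 20, the Hippo and AP-1 genes in 9 of 20 and the fibroblast and matrix genes in 11 of 26. The counts in biosample 2 were 4, 5, 2 and 4. In biosample 1, shares below that of all genes were found for neuron genes (1 of 10), skeletal muscle genes (1 of 8) and hepatocyte genes (2 of 11). The counts in biosample 2 were 0 of 10, 1 of 8 and 1 of 11, the last 2 above its share over all genes. Blood cell genes had 3 of 8 and 1 of 8.

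**Figure D5:**
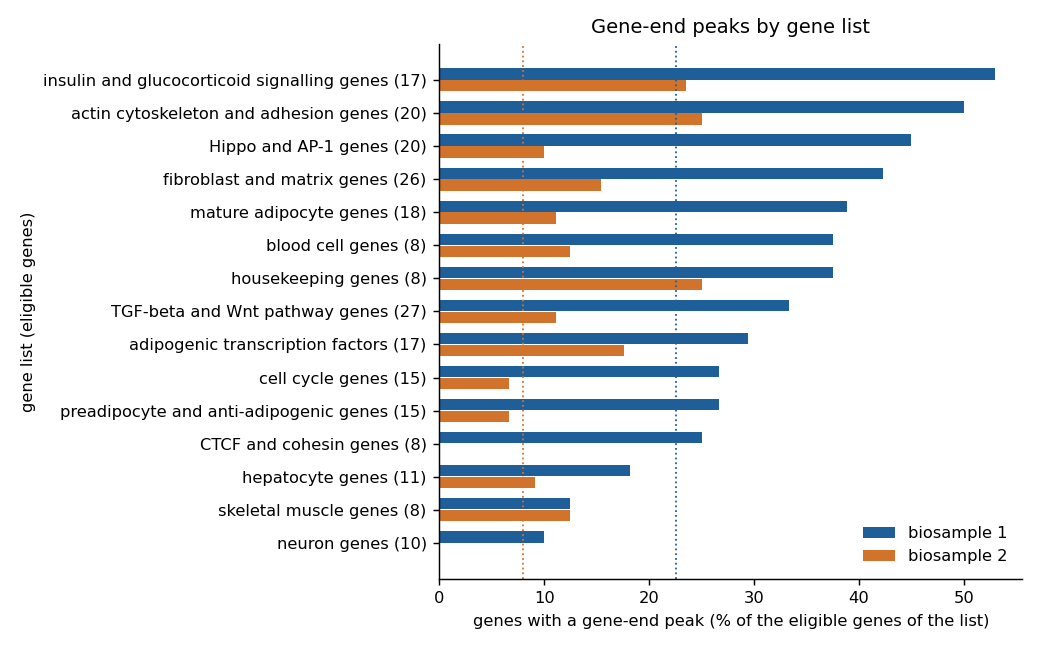
Percent of the eligible genes of each of 15 lists with a peak at the gene end (x axis), by list with the number of eligible genes in brackets (y axis), in biosample 1 (blue) and biosample 2 (orange). Dotted lines mark all 15490 genes (22.6% and 7.96%); 12 of the 15 blue bars pass their line.

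Of the adipogenic transcription factors, 5 of 17 had a peak at the end in biosample 1 and 3 of 17 in both lists. Srebf1, the sterol and lipogenic regulator, had scores of 111 and 38 in its 3' UTR. Ebf1, an early factor of the fat lineage, had 104 and 40 at 180 bp past its end with a CTCF match. Ebf2, a brown fat factor, had 69 and 12. These scores put the Ebf1 peak at percentiles 79.4 and 62.0 of its lists, and the Ebf2 peak at 54.2 and 4.07.

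The mature adipocyte genes had peaks at 7 of 18 ends in biosample 1 and 2 of 18 in both lists. The peak 304 bp past Scd1, the stearoyl-CoA desaturase, had scores of 115 and 32 and the AP-1 motif. Cfd, which encodes adipsin, had 96 and 37, and no promoter peak in either list. Pck1, the gluconeogenic and glyceroneogenic enzyme, had 69 and 21 and likewise no promoter peak. The peak at Agpat2, an acyltransferase of triglyceride synthesis, had 75 and 20. The windows of Cfd and Agpat2 were searched only in part, and these 2 genes are not among the 18.

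Preadipocyte and anti-adipogenic genes had peaks at 4 of 15 ends in biosample 1 and 1 of 15 in biosample 2. Hes1 had scores of 139 and 70, the progenitor antigen gene Ly6a 117 and 43, and Sox9, a cartilage and progenitor factor, 98 in biosample 1 with a separate peak of 24 in biosample 2. The windows of Hes1 and Ly6a were searched only in part, and both genes are outside the 15.

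Among fibroblast and matrix genes, Mmp14, a membrane collagenase, had 129 and 47, Thy1, a stromal surface antigen, 116 and 33, and Dcn, the proteoglycan decorin, 105 and 37. These 3 peaks lay between 272 and 468 bp past the end. Thy1, with a window searched only in part, is not among the 26 fibroblast and matrix genes counted. Of the Hippo and AP-1 genes, the YAP target Ccn1 had 4 and 2 peaks, the strongest with 120 and 41, and Tead3 had 4 in each list.

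The actin and adhesion genes with peaks in both lists included the focal adhesion genes Pxn (115 and 44), Zyx (126 and 34) and Tln1 (103 and 39), and smooth muscle actin Acta2 (108 and 39, with a CTCF match). The insulin and glucocorticoid genes included Akt1, the insulin-responsive kinase (118 and 48), the clock gene Per1 (115 and 42) and the kinase gene Gsk3b (110 and 26). Of the TGF-beta and Wnt genes, 9 of 27 had a biosample 1 peak, with 102 and 31 at Tgfb1, 108 and 29 at the Wnt receptor gene Fzd2 and 78 and 15 at Apc. The Fzd2 end held 6 biosample 1 peaks in a hotspot of 4714 bp.

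Some genes of other cell types had peaks at their ends too. Spi1, the myeloid factor PU.1, had 134 and 64, with a promoter peak in biosample 1 alone, and is not among the 8 blood cell genes counted because its window was searched only in part. Myh1, a skeletal muscle myosin, had 121 and 30. The housekeeping gene Gapdh had 142 and 64, at a place that also lay within 1000 bp of another gene end.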

How the data were processed

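The authors deposited 1 peak list and 1 hotspot list in mm10 for each of 2 biosamples, each from 1 alignment of both libraries, per the labels' file descriptions. Neither an aligner nor a peak caller is named there, and the tools are not given in the sources used here. Column 7 of the deposited peak lists was read as a score (whole numbers up to 150), used only as a rank within its list. The authors' hotspot lists give −log10 q values, capped at 100. Read depth is unknown.

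Start and end sites came from GENCODE M21, and sequence from RefSeq's GRCm38.p6, whose chromosomes are those of mm10. Starts were those of protein-coding transcripts, and a gene's end was the end of its gene record. Overlaps, densities, odds ratios and motif matches were computed in Python 3 with pandas, scipy and statsmodels, and checked on simulated intervals and tables. Shares have Wilson intervals, densities Poisson intervals, odds ratios exact conditional or Mantel-Haenszel intervals, all at 95%. No p-value was computed.

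The members and the 15 gene lists (286 genes, from textbook knowledge) were chosen with earlier results of these data known. Named genes follow a rule: the 10 strongest shared peaks, the 5 genes with the most peaks, the 5 strongest peaks of 1 list alone, up to 4 genes per list with a peak in both lists, the 10 strongest without a promoter peak, and the 5 widest hotspots. Some genes that the rule names are not reported here. The comparisons of convergent ends, CTCF strand, RefSeq starts, neighbouring peaks and sharing by promoter were added later. Alternatives changed the windows, the starts, the list length, the sharing rule and the strata.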

Additional observations from a re-analysis of the deposited data

How the results depend on the processing

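Of 154 values under other settings, 128 were called unchanged. A ratio was so called if it kept its direction and its side of the threshold, an interval that excludes 1. A count was so called if it changed by no more than a fixed factor, and a share or width if it stayed within the main interval. The density ratio, the promoter odds ratio and the CTCF and AP-1 odds ratios were unchanged under every planned setting. The number of peaks at gene ends was 2728 and 784 in biosamples 1 and 2 with a window of 500 bp, 10788 and 3034 with 2000 bp, and 2701 and 806 with the stronger 50% of each list.

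Sharing was less stable. In biosample 1 the odds ratio was 0.950 with a window of 500 bp, 0.958 over 5000 bp from starts and 0.996 with the stronger 50%, each with an interval that includes 1, and within deciles it turned to 1.16 with the stronger 50%. In biosample 2 it was 0.971 with the stronger 50% and 0.969 when at least 50% of the peak had to be met. It was 1.27 against the shortened biosample 1 list and 1.76 when a hotspot counted as sharing. Within deciles it came to 0.960 against the shortened list and 1.29 when a hotspot counted, each with an interval that includes 1. The cause was not tested.

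Against distal peaks 1000 to 6000 bp from an end, an alternative added after seeing the data, the CTCF odds ratios were 1.08 and 1.07 and the AP-1 odds ratio of biosample 2 was 0.874. The downstream share of biosample 1 was 56.5% with a window of 500 bp. Non-coding starts lay within 500 bp of 2.11% and 2.13% and within 2000 bp of 7.83% and 7.62% of the peaks. The median hotspot width was 250 bp with 1 peak and 181 bp below the cap in biosample 1, and 199 bp below the cap in biosample 2.

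No paired analysis was possible because each list pools the libraries of 1 biosample, and for the same reason no replicate was left out. Depth is unknown, and no comparison of list length can be read apart from it.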
